A study of Mus musculus with 24 samples.

Results

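The cell cycle genes described here are 37 genes of the 22889 entries in the deposited expression table, chosen by name for their role in the cycle. Earlier results of these data were known when they were chosen. All 37 were found: 16 genes of DNA replication and of the entry into it (S phase), 17 genes of mitosis, 2 D cyclins and 2 inhibitors of cyclin-dependent kinases. The study compared motor neurons made from mouse embryonic stem cells, oculomotor neurons (OMN) against spinal motor neurons (SC). The OMN cultures came from an *Islet1*-GFP line that also carried a *Phox2a* transgene under the nestin enhancer (*Islet1*-GFP/*NesEPhox2a*), which is active in neural progenitors, and were patterned as embryoid bodies for 5 days with 250 nM SAG, an agonist of Smoothened, and 100 ng/ml FGF8. The SC cultures came from an *Hb9*-GFP line without that transgene and received 500 nM SAG and 100 nM retinoic acid (RA) for the same time. Each culture was sorted by FACS into a GFP-positive and a GFP-negative fraction, and SMART-seq2 libraries of poly(A) RNA were made from the sorted bulk cells, which gave 4 groups of 6 libraries, 24 in all. PCR copies cannot be removed without molecular identifiers, so reads of a library are not independent. Growth as embryoid bodies, FACS and the library method were common to all groups, while the SAG dose and the sorted reporter were not. Line, reporter, SAG dose and patterning factors changed together between OMN and SC, so their parts in a difference between the cultures cannot be told apart. The methods of the study also name a mitotic inhibitor, 5-fluoro-2′-deoxyuridine, for all of its cultures, given to limit proliferation. They do not say whether it was present before the sort.

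A dividing cell loads the MCM helicase onto replication origins in G1, copies its DNA in S phase, and separates the copies in mitosis under the control of cyclin-dependent kinases and the spindle checkpoint. D cyclins couple outside signals to the start of this sequence, and the CIP/KIP inhibitors p21 and p27 hold the kinases back. Stem cells and neural progenitors divide, whereas a motor neuron leaves the cycle as it is born and does not return to it, so a sorted fraction that holds both can carry transcripts of both states.

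Levels are RPKM as computed by the authors, reads scaled by transcript length and by the mapped reads of the library. Differences are given as log2 changes of RPKM + 1, and for weakly expressed genes this scale makes a change look smaller than it is. They were tested with limma on every gene of the table detected in 2 or more fitted samples, with a threshold of 0.05 on p-values adjusted by the Benjamini-Hochberg method, and "rose" and "fell" are used only for genes past it. All 37 genes passed the filter. Counts at an unadjusted p under 0.05 are given without the share of all genes at that level, which was not computed. Shares of all genes printed near such counts are of genes past the adjusted threshold. Mapped reads per library, read off the smallest spacing between RPKM values, ran from 752529 to 7675428. They were fewer in replicates 1 to 4 (median 2833426, 16 libraries) than in replicates 5 and 6 (median 6979753, 8 libraries), and 1 read in a transcript of 2 kb was worth between 0.065 and 0.664 RPKM. The methods of the study name different Illumina sequencers with different read lengths, and do not say which libraries each one read. The labels do not say that replicates came from separate cultures, so p-values measure only the spread between these samples. The GFP-positive and GFP-negative samples of 1 number were read as a pair, because they departed from their groups in similar ways in 6 of 6 pairs of each culture (r from 0.39 to 0.75 in OMN and from 0.44 to 0.67 in SC). These correlations were taken over the 11053 genes with a mean log2(RPKM + 1) above 1. The GFP-positive sample of SC pair 6 correlated more with a GFP-negative sample of another number (0.62) than with its own (0.59), and OMN samples 5 (0.73) and 6 (0.75) correlated nearly as well with another number (0.71). Values with the pairs as a block in the fit are given where they change a call.

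The fractions carried the markers of their labels to different degrees. In the OMN GFP-positive samples *Tubb3* had the highest median of 10 neuronal markers. Their summed level ran from 1485 to 2180 RPKM (median 1774) there, against 21.2 to 71 (median 45) in the GFP-negative samples. *Isl1*, whose reporter was sorted, lay between 141 and 369 RPKM in the former and between 0.696 and 1.87 in the latter. The sum of 8 pluripotency markers was 1.01 to 265 RPKM (median 61.4) in the OMN GFP-positive samples and 730.3 to 9882 (median 6471) in the GFP-negative samples, where all 8 were above 1 RPKM by their median and *Dppa5a* was the most abundant. The SC fractions were less far apart: the neuronal sum was 91.6 to 2171 RPKM (median 985) in GFP-positive and 66 to 293 (median 118) in GFP-negative samples, and the pluripotency sum was 15.6 to 12418 (median 926) and 109 to 5993 (median 246). *Dppa5a* made most of these median pluripotency sums, with medians of 55.4 and 6336 RPKM in the OMN and 901 and 223 in the SC fractions. Between the SC fractions 6 of the 8 markers had a higher mean log2 level in GFP-positive samples and 2 a lower one. *Klf4*, with medians of 1.43 and 16.7 RPKM, was among the 2. The sum of 13 neural progenitor markers had medians of 491 and 481 RPKM in the OMN GFP-positive and GFP-negative samples, and of 539.8 and 1347 in the SC samples. Between the OMN fractions these 13 did not move together: 2 fell and 1 rose, with *Sox2* at a median of 10.3 RPKM in GFP-positive and 78.7 in GFP-negative samples, *Hes1* at 13.9 and 102, and *Nkx6-1* at 159 and 12.3. The 6 endoderm markers summed to 4.86 to 276 RPKM (median 83.4) in the SC GFP-negative samples and to at most 41.1 in any library of the other groups. The median sums of the astrocyte, oligodendrocyte, mesoderm and microglia markers stayed at or below 22.7 RPKM in every group, and *Gfap*, *Aqp4*, *Sox10* and *Ptprc* were below 1 RPKM in each library.

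Of these libraries, 4 stood apart before any cell cycle gene was compared. Both spinal samples of number 4 resembled each other (r of log2 levels 0.958, the third closest pair among all libraries) and had high pluripotency markers, 5328 RPKM in the GFP-positive and 5993 in the GFP-negative sample, with *Nanog* at 156 and 185 RPKM. The neuronal sum of the GFP-positive sample 4 was 91.6 RPKM, the lowest of its group, and its *Isl1* level was 7.63 RPKM. *Mnx1* (Hb9), the gene of the reporter sorted in SC, was at 43.1 RPKM in the GFP-positive and 69.4 RPKM in the GFP-negative sample of number 4, while the other SC GFP-negative samples had at most 4.72 RPKM. A problem of the sort or the labels and a difference of this culture cannot be told apart, so it is uncertain what the differences within pair 4 compare. The spinal GFP-positive sample 5 had the highest pluripotency sum of all libraries (12418 RPKM), of which *Dppa5a* made 12328 RPKM. In the spinal GFP-negative sample 2, 3 repeat-like transcripts (*Gm10800*, *Gm10801* and *Gm21738*) took 68.81% of the summed RPKM, beside 17.79% in the GFP-positive sample 2 and at most 5.44% in any other library. The main counts and medians that rest on the spinal samples are therefore given with and without both samples of number 4. Each library was counted as 1 sample.

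In the OMN cultures 15 of 16 S phase and all 17 mitosis genes had a lower mean in the GFP-positive than in the GFP-negative fraction. The inhibitor *Cdkn1a* was higher. Of the 37 genes 14 fell, 7 of 16 S phase and 7 of 17 mitosis genes, where 2.34% of all 22179 genes tested fell. 1 of the 37 rose, *Cdkn1a*, where 3.81% of all genes rose. The median log2 change was -1.64 over the S phase genes and -1.83 over the mitosis genes, beside 0.00 over all genes. Both spinal samples of number 4 entered this count through the spread of the common fit, and without them 18 of the 37 fell and 1 rose, beside 869 and 957 of 21837 genes. With the pairs as a block 30 of the 37 fell, beside 8.21% of all genes, and 2 rose, beside 8.22%. The 30 were 13 S phase genes, 16 mitosis genes and *Ccnd2*, and the 2 were *Cdkn1a* and *Cdkn1b*. By pair, 30 of the 37 were lower in the GFP-positive sample of all 6 pairs (13 S phase and all 17 mitosis genes), as were 11.2% of all genes. Fewer dividing cells in a fraction and less RNA of these genes per cell cannot be told apart in bulk samples. In the same comparison 9 of 10 neuronal markers rose, 6 of 8 pluripotency markers fell, and 2 of 13 neural progenitor markers fell and 1 rose, and their part in the levels of the cell cycle genes was not tested.

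Among the S phase genes, *Mcm6*, a subunit of the MCM helicase, had 3.56 to 22.3 RPKM (median 8.62) in the OMN GFP-positive fraction against 29.8 to 64.9 (median 39.9) in the GFP-negative fraction. Every GFP-positive sample was below every GFP-negative sample, with samples 5 and 6 lowest and 1 and 2 highest in the former. The change of *Mcm6* was -2.05 (SE 0.40, adjusted p = 0.00213). *Mcm4*, another subunit, had 1.18 to 20.9 RPKM (median 7.15) against 25.5 to 56 (median 34.8), and its change was -2.22 (SE 0.52, adjusted p = 0.00964). *Mcm3*, also of the helicase, had 1.47 to 20.6 RPKM (median 8.71) against 29.2 to 69.3 (median 39.4), a change of -2.44 (SE 0.64, adjusted p = 0.0226). *Mcm5* had 2.28 to 17 RPKM (median 5.63) against 18.3 to 62.4 (median 27.9), a change of -2.11 (SE 0.58, adjusted p = 0.0294). None of these subunits overlapped between the fractions, and the lowest value of each lay in GFP-positive sample 4, 5 or 6. *Cdc6*, which loads the helicase onto origins, was at 0 to 4.61 RPKM (median 0.945) in GFP-positive and 4.87 to 12.5 (median 7.15) in GFP-negative samples, and changed by -2.06 (SE 0.54, adjusted p = 0.0229). The 0 was in GFP-positive sample 6, where 1 read in 2 kb was worth 0.072 RPKM. In all, the groups of 7 members did not overlap with the GFP-positive samples lower (*Mcm3*, *Mcm4*, *Mcm5*, *Mcm6*, *Cdc6*, *Top2a* and *Bub1b*), beside 2.48% of all genes.

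*Pcna*, the sliding clamp of the DNA polymerases, was the most abundant of the S phase genes that fell, with 20.9 to 121 RPKM (median 45.1) in the OMN GFP-positive samples and 51.3 to 229 (median 200.3) in the GFP-negative samples. The fractions overlapped through GFP-positive samples 1 and 2 and GFP-negative samples 3 and 4, yet *Pcna* was lower in the GFP-positive sample of each pair (-1.65, SE 0.42, adjusted p = 0.0185). *Mcm7* fell as well, from 26.1 to 67.9 RPKM (median 46.7) in GFP-negative to 5.41 to 30.2 (median 16.8) in GFP-positive samples (-1.64, SE 0.46, adjusted p = 0.034). *Rrm2*, the inducible subunit of ribonucleotide reductase, spanned 28.1 to 226 RPKM (median 36.2) and 57.3 to 325 (median 219.6), lower in 6 of 6 pairs, with an adjusted p of 0.0975 without and 0.032 with the pair block. *Ccne1*, the E cyclin that drives S phase entry with its kinase, spanned 2.5 to 18.2 RPKM (median 9.37) and 10 to 41.5 (median 28.1), with adjusted p-values of 0.235 and 0.00567. *Mcm2*, *Cdc45* and *Cdt1* of the replication machinery and *Tyms*, the thymidylate synthase that the mitotic inhibitor acts on, were also lower in 6 of 6 pairs and passed the threshold in the fit with the block. The 3 S phase genes that did not pass it in either fit were *Rrm1*, *Ccne2* and *E2f1*. *E2f1*, the transcription factor that switches on many S phase genes, had 1.7 to 30.9 RPKM (median 10.8) in the GFP-positive and 1.53 to 29.1 (median 10.1) in the GFP-negative samples and was higher in the GFP-positive sample of 4 of 6 pairs. *Rrm1* and *Ccne2* were lower in 4 of 6 pairs, with *Rrm1* at 3.47 to 16.4 RPKM against 9.61 to 19.8 and *Ccne2* at 1.57 to 9.18 against 2.1 to 14.9.

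**Figure D1:**
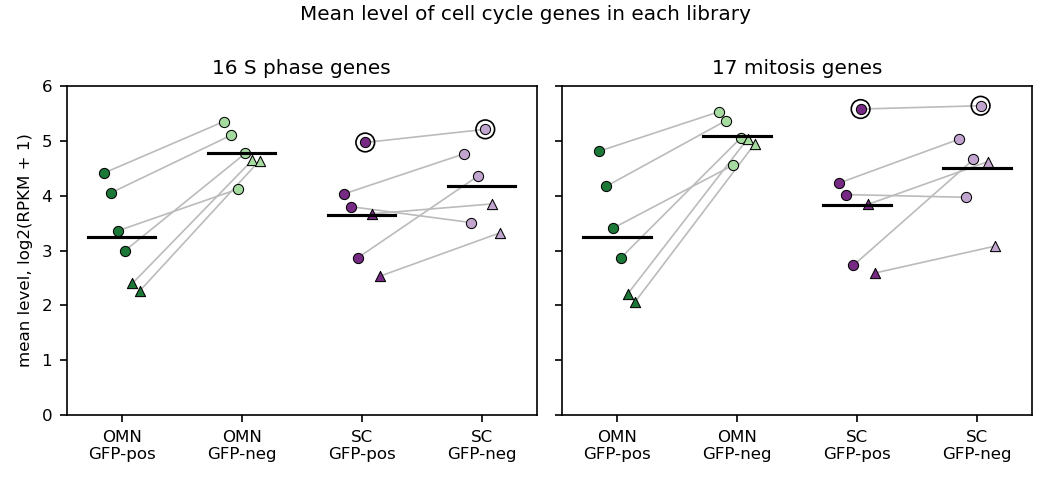
Mean level, log2(RPKM + 1), of the 16 S phase genes (left) and the 17 mitosis genes (right) in each library, with grey lines joining the samples of 1 number, triangles for replicates 5 and 6, rings around both spinal samples of number 4 and bars at the group means. The means of the mitosis genes lay between 2.06 and 4.81 in the OMN GFP-positive samples and between 4.56 and 5.53 in the OMN GFP-negative samples, each pair stepping down to its GFP-positive sample.

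Among the mitosis genes, *Bub1b*, a kinase-like protein of the spindle checkpoint, had 0.61 to 8.52 RPKM (median 2.56) in the OMN GFP-positive and 12.6 to 28.5 (median 15.5) in the GFP-negative samples. Its fractions did not overlap, and its change was -2.29 (SE 0.60, adjusted p = 0.0221). *Top2a*, the topoisomerase that untangles the copied chromosomes, had 3.55 to 34.5 RPKM (median 16.7) against 40.8 to 61.4 (median 47), a change of -1.83 (SE 0.52, adjusted p = 0.0355). Its GFP-negative samples lay close together, while the GFP-positive samples were spread from samples 5 and 6, the lowest, to sample 2, the highest. *Cdc20*, which activates the anaphase-promoting complex, had 8.38 to 93.8 RPKM (median 27.5) against 65 to 181 (median 120.0) and fell by 2.13 on the log2 scale (SE 0.55, adjusted p = 0.0184). *Ccnb1*, the B cyclin of the mitotic kinase, had 6.42 to 80 RPKM (median 9.83) against 36.8 to 108 (median 74.2), a change of -2.11 (SE 0.59, adjusted p = 0.0308). Both overlapped through GFP-positive sample 1, and both were lower in the GFP-positive sample of every pair. *Birc5* (survivin, of the chromosomal passenger complex) had 3.53 to 49.2 RPKM against 44.7 to 107, *Bub1*, a checkpoint kinase, 1.29 to 12.7 against 8.34 to 29.6, and *Cenpa*, the centromeric histone, 2.65 to 30.3 against 14.2 to 66.7. They fell by 2.04 (SE 0.52, adjusted p = 0.0173), 2.06 (SE 0.56, adjusted p = 0.028) and 1.81 (SE 0.54, adjusted p = 0.0449).

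*Mki67*, the proliferation marker Ki-67, had 2.35 to 24.8 RPKM (median 9.37) in the OMN GFP-positive and 18.3 to 50.5 (median 28.6) in the GFP-negative samples. It was lower in 6 of 6 pairs, overlapped through GFP-positive samples 2 and 3, and missed the threshold without the pair block (-1.70, SE 0.57, adjusted p = 0.0831), where the block gave an adjusted p of 0.00682. *Ccna2*, the A cyclin of S phase and G2, had 2.91 to 29.1 RPKM (median 6.76) against 13.6 to 39.2 (median 30) and lay at the threshold (-1.72, SE 0.52, adjusted p = 0.0502, with the block 0.00655). *Cdk1*, the kinase of mitosis, ran from 4.95 to 40.6 RPKM against 10.5 to 65.4, and *Ccnb2*, its other B cyclin partner, from 2.81 to 69.4 against 23.3 to 153. The kinases *Aurka* (2.86 to 49.9 RPKM against 20 to 55.9) and *Aurkb* (1.72 to 24.4 against 9.01 to 36.5), the ubiquitin-conjugating enzyme *Ube2c* (5.46 to 77.7 against 41.6 to 155) and the kinesin *Cenpe* (0.437 to 12 against 6.52 to 21) were likewise lower in every pair. *Plk1*, the polo-like kinase, spanned 0.79 to 34.3 RPKM and 12.5 to 61.9, with an adjusted p of 0.411 without and 0.0125 with the pair block. *Foxm1*, the transcription factor of the late cell cycle genes, was the mitosis gene that passed the threshold in neither fit, at 0.272 to 3.86 RPKM (median 3.54) against 2.85 to 7.3 (median 5.53). Its GFP-positive samples 1 to 4 lay between 3.53 and 3.86 RPKM and samples 5 and 6 at 0.272 and 0.277.

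**Figure D2:**
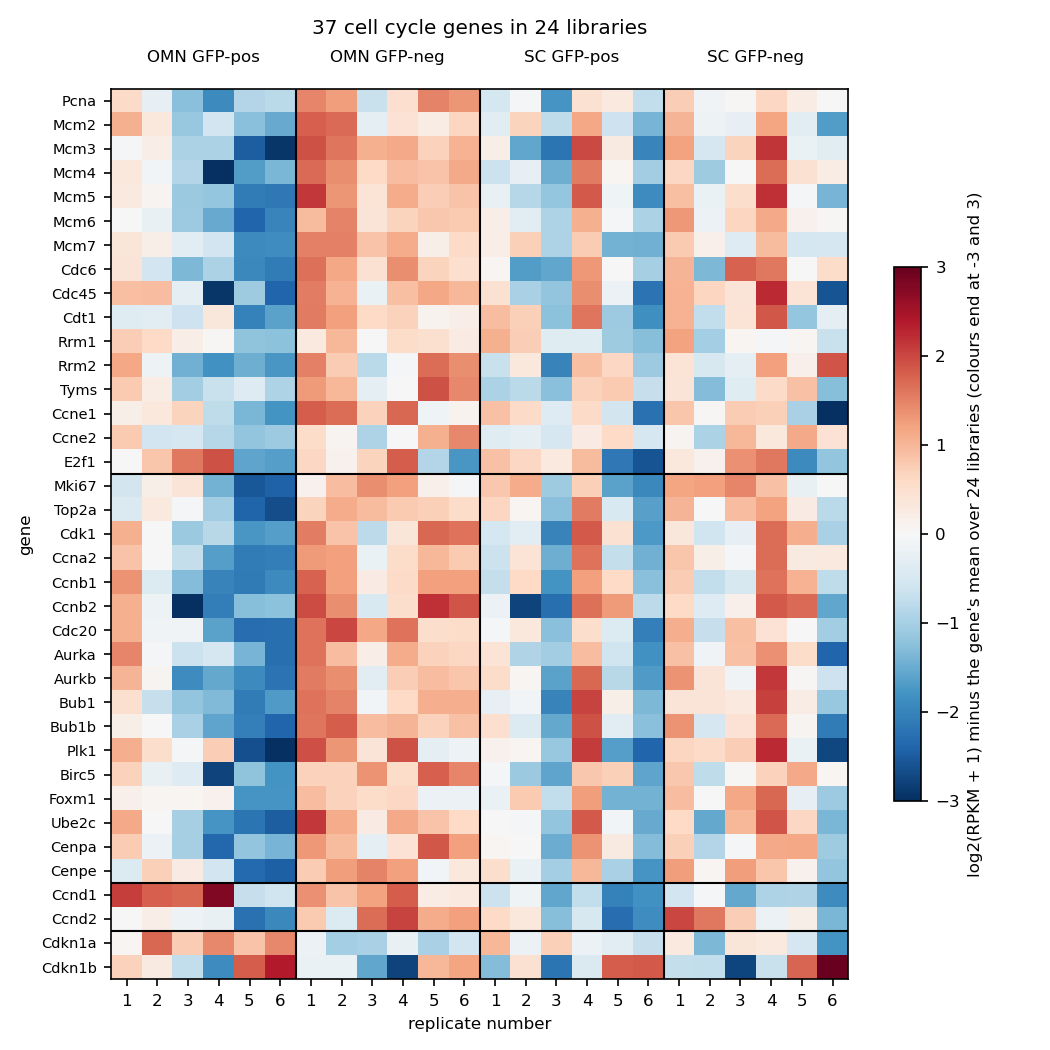
Level of each of the 37 genes in each of the 24 libraries as log2(RPKM + 1) minus the gene's mean over the 24 libraries, with colours that end at -3 and 3 and black lines between the 4 groups of libraries and between S phase, mitosis, D cyclin and inhibitor genes. The OMN GFP-positive columns 5 and 6 are blue for nearly all S phase and mitosis genes, and the spinal columns of number 4 are red for most of them.

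The size of the OMN difference varied between the pairs. The median difference of the S phase genes was -0.93, -1.34, -0.80, -1.94, -2.27 and -2.47 in pairs 1 to 6, and that of the mitosis genes was -0.70, -1.11, -1.11 and -2.28 in pairs 1 to 4 and -3.04 in pair 6, with pair 5 close to it. All 17 mitosis genes were lower in the GFP-positive sample of each pair. Within replicates 1 to 4 the medians were -1.29 for the S phase and -1.29 for the mitosis genes, and none of the 37 passed the threshold in limma, where 2.27% of all genes did. Within the more deeply sequenced replicates 5 and 6 they were -2.36 and -2.97, with 16 of the 37 called, beside 4.74% of all genes. Samples 5 and 6 of the OMN GFP-negative group were the closest pair among all libraries (r of log2 levels 0.982). Those of the OMN GFP-positive group came next (0.977). The parts of depth and of this likeness in these counts were not tested. The count of 15 genes called became 7 without OMN GFP-positive sample 4, 5 without sample 5, 5 without sample 6, 6 without GFP-negative sample 1 and 9 without GFP-negative sample 2, while the medians stayed between -1.88 and -1.40 (S phase) and between -2.13 and -1.70 (mitosis) with any 1 library left out.

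In the SC cultures the S phase and mitosis genes overlapped widely between the fractions, and most had a lower mean in the GFP-positive one. None of the 37 passed the threshold in limma, 1 had an unadjusted p under 0.05 (*Ccnd2*), and 1.23% of all genes were called. The median log2 change was -0.54 over the S phase genes, of which 15 of 16 were below 0, and -0.69 over the mitosis genes, all 17 below 0, beside 0.00 over all genes. Without both samples of number 4 the medians were -0.63 and -0.76, and again none was called, 4 had an unadjusted p under 0.05, and 2.90% of all genes were called. Without the GFP-negative sample 2 they were -0.72 and -0.77, and with any 1 library left out they lay between -0.75 and -0.35 (S phase, smallest without GFP-negative sample 4) and between -1.04 and -0.39 (mitosis, smallest without GFP-positive sample 6). In the same comparison 6 of 10 neuronal markers rose and 4 of 6 endoderm markers fell (median -2.77). Of 8 pluripotency markers 1 fell, while 6 were above 0 (median 0.51). The part of these markers was not tested. With the pair block none of the 37 was called, where 2.93% of all genes were called. An unadjusted p under 0.05 was found for 12 of the 37, and the share of all genes at that level was not computed. Without number 4 this block again called none, where it called 666 genes higher and 572 lower of 21837. No member had groups that did not overlap with the GFP-positive samples lower, as 0.397% of all genes had. In all 6 pairs 7 of the 37 were lower in the GFP-positive sample (*Mcm5*, *Mcm6*, *Cdc6*, *Mki67*, *Aurkb*, *Bub1* and *Ccnd2*), beside 2.60% of all genes.

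*Mcm6* had 11.2 to 48.4 RPKM (median 19.9) in the SC GFP-positive and 20 to 56.6 (median 30.2) in the GFP-negative samples, a change of -0.67 (SE 0.40, adjusted p = 0.601). The GFP-positive sample 4 was the highest of its group, and without both samples of number 4 the ranges were 11.2 to 26.2 and 20 to 56.6 RPKM and the change -0.79. *Cdc6* had 0.329 to 9.5 RPKM (median 2.2) against 0.678 to 13.7 (median 6.47), a change of -1.08 (SE 0.54, adjusted p = 0.505), and -1.24 without number 4. *Mki67* had 4.16 to 41.5 RPKM (median 19.9) against 15.8 to 53 (median 39.3), a change of -1.08 (SE 0.57, adjusted p = 0.533), and -1.27 without number 4. The values of *Mki67* in GFP-positive samples 1, 2 and 4 lay among those of the GFP-negative samples, and samples 3, 5 and 6 lay below all of them. *Top2a* ran from 8.34 to 83.9 RPKM (median 24.4) against 15.5 to 65.8 (median 43.4), and *Cdk1* from 3.98 to 70.4 (median 13.8) against 9.2 to 62.4 (median 20.1). In both the highest of the 12 values was that of GFP-positive sample 4. *Pcna* ran from 23.1 to 112 RPKM (median 67.5) against 75.8 to 136 (median 89.5).

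The SC pairs differed in size and, for pair 2, in sign. The median difference of the S phase genes was -0.99, 0.52, -1.53, -0.18, -0.13 and -0.93 in pairs 1 to 6, and that of the mitosis genes -0.77, 0.06, -1.92, -0.04, -0.72 and -0.50. In pair 2, whose samples both held the repeat-like transcripts, the GFP-negative one more, 11 of 16 S phase and 9 of 17 mitosis genes were higher in the GFP-positive sample. Other genes were lower in its GFP-negative sample too. Over genes above 0 RPKM in all libraries the upper quartile was 11.87 RPKM there and 19.23 in the GFP-positive sample. The part of this in the sign of pair 2 was not tested. In pair 3 all 33 of these genes were lower, and its GFP-positive sample had the highest neuronal sum (2171 RPKM) and the lowest pluripotency sum (15.6 RPKM) of its group. In pair 4 both fractions were high: GFP-positive sample 4 was the highest of its group for 12 of 16 S phase and 16 of 17 mitosis genes, and GFP-negative sample 4 for 8 and 12. Their mean mitosis levels were 5.58 and 5.64 on the log2 scale, where the other SC samples reached at most 4.23 and 5.03. The GFP-negative sample 6 was the lowest of its group for 13 of 17 mitosis genes, at a mean level of 3.08. The part of the marker differences in these pairs was not tested.

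Whether the step between fractions was larger in the OMN than in the SC cultures was tested as an interaction. None of the 37 passed the threshold in limma, 4 had an unadjusted p under 0.05, and 0.320% of all genes were called. The 4 were *Mcm4*, *Mcm6*, *Bub1b* and *Cdkn1a*, and with the pair block 22 had an unadjusted p under 0.05 (10 S phase genes, 10 mitosis genes and both inhibitors). No share of all genes at that level was computed. The median difference between the steps was -1.07 over the S phase and -1.22 over the mitosis genes (15 of 16 and 17 of 17 below 0, with a median of 0.01 over all genes), and -1.02 and -1.03 without both spinal samples of number 4, where none was called, 3 had an unadjusted p under 0.05, and 1.04% of all genes were called. *Bub1b* differed by -1.95 between the steps (SE 0.85, adjusted p = 0.608). With the pair block *Bub1b* was the 1 gene of the 37 past the threshold (SE 0.46, adjusted p = 0.0469), where 2.04% of all genes were called, and it was no longer called when both spinal samples of number 4 were also left out, a setting chosen after seeing the data. *Mcm6* differed by -1.37 (SE 0.56, adjusted p = 0.541), and by -1.25 without number 4. In the same test 7 of 8 pluripotency markers had an unadjusted p under 0.05 (median -3.80, none called in limma), as did 7 of 10 neuronal markers (median 2.81, 2 called), and their part was not tested. Within replicates 1 to 4 the medians of the differences were -0.57 and -0.63, and within replicates 5 and 6 they were -1.85 and -2.19.

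**Figure D3:**
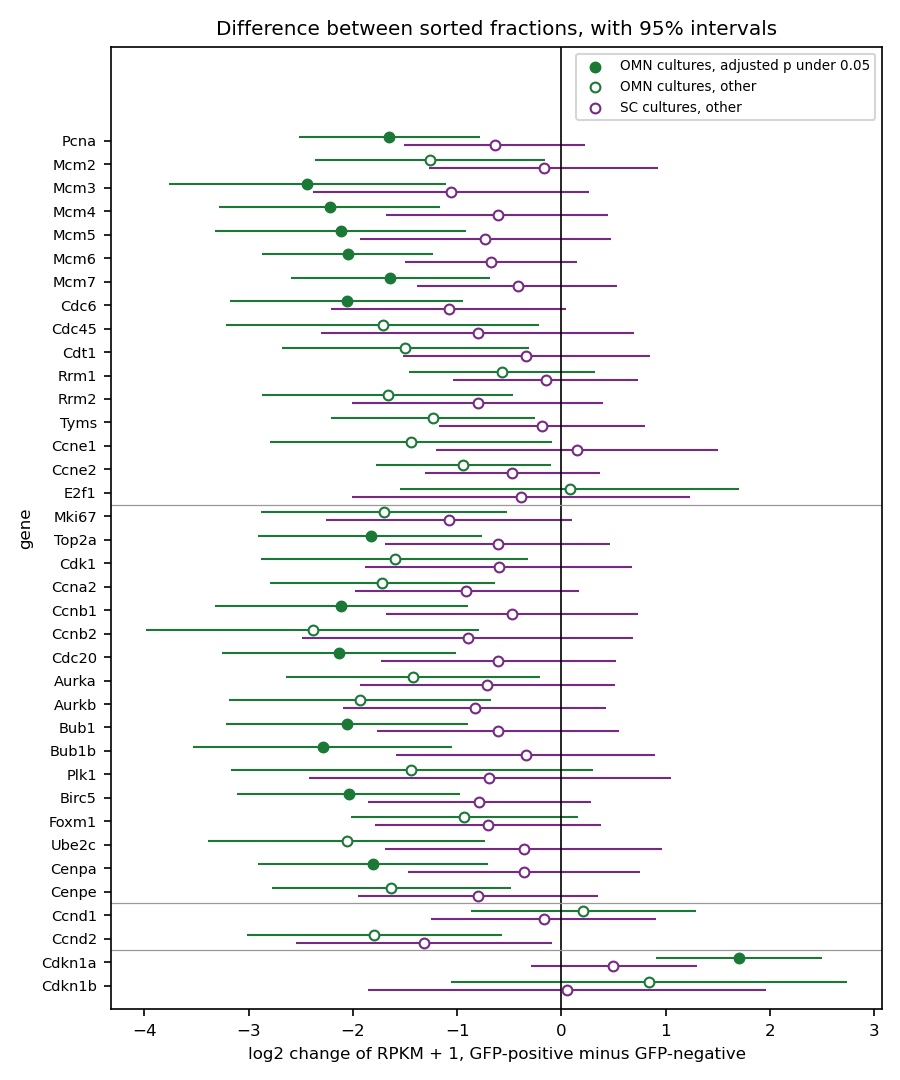
Log2 change of RPKM + 1 between the GFP-positive and GFP-negative fraction for each of the 37 genes in the OMN (green) and SC (purple) cultures, with 95% intervals from limma and filled symbols for an adjusted p under 0.05. In the OMN cultures 15 symbols are filled, 14 left of 0 and *Cdkn1a* right of it, and in the SC cultures none is.

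The D cyclins did not move together. *Ccnd1*, cyclin D1, had higher medians in the OMN than in the SC cultures in both fractions. Its levels were 3.29 to 46.5 RPKM (median 22.6) in OMN GFP-positive, 7.13 to 23.6 (median 13.4) in OMN GFP-negative, 0.705 to 5.39 (median 2.25) in SC GFP-positive and 0.898 to 5.64 (median 2.68) in SC GFP-negative samples. In the GFP-negative fraction the cultures did not overlap for *Ccnd1*, beside 0.397% of all genes with OMN higher in this way. The change there was 1.95 (SE 0.52) and missed the threshold with an adjusted p of 0.0767 (1.96 and 0.0713 without both spinal samples of number 4). In the GFP-positive fraction the change was 2.33 (SE 0.62, adjusted p = 0.14), and 2.41 without number 4 (adjusted p = 0.165). There the OMN samples 1 to 4, at 22.1 to 46.5 RPKM, were above every SC sample. OMN samples 5 and 6, at 3.29 and 3.57 RPKM, lay among SC samples 1 to 4. They were above SC samples 5 and 6, at 0.705 and 0.968 RPKM. Some other settings called *Ccnd1*: replicates 1 to 4 alone gave 2.86 (adjusted p = 0.0312) in the GFP-positive and 2.10 (adjusted p = 0.0381) in the GFP-negative fraction. Replicate number as a block gave 1.95 (SE 0.35, adjusted p = 0.00654) in the GFP-negative fraction, and a fit of all 24 samples gave 2.33 (adjusted p = 0.0192) in the GFP-positive fraction. Quantile normalization gave 2.53 (adjusted p = 0.0426) in the GFP-positive and 2.04 (adjusted p = 0.0275) in the GFP-negative fraction. Over all settings the change ran from 1.27 to 2.86 in the GFP-positive and from 1.65 to 2.33 in the GFP-negative fraction. Replicate number as a block did not call *Ccnd1* in the GFP-positive fraction.

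Between the OMN fractions *Ccnd1* changed sign with the replicates: it was higher in the GFP-positive sample of pairs 1 to 4 and lower in pairs 5 and 6. Its mean log2 difference was 0.21 (SE 0.52, adjusted p = 0.965) over all pairs and -0.91 within replicates 5 and 6. In the SC cultures the fractions overlapped throughout for *Ccnd1*. *Ccnd2*, cyclin D2, had 3.39 to 22.6 RPKM (median 17) in the OMN GFP-positive and 14.4 to 82.4 (median 45.6) in the OMN GFP-negative samples. It was lower in 5 of 6 pairs, the exception being pair 2, and its change of -1.80 (SE 0.59) had an adjusted p of 0.0763 without and 0.0138 with the pair block. In the SC cultures *Ccnd2* had 3.25 to 29.9 RPKM (median 10.6) against 6.94 to 81.1 (median 27.7), a change of -1.32 (SE 0.59, adjusted p = 0.426), and -1.53 without number 4. It was lower in the GFP-positive sample of all 6 SC pairs and was the member with the lowest unadjusted p in that comparison.

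Of the inhibitors, *Cdkn1a*, which encodes p21, rose in the OMN GFP-positive fraction, where 7 S phase and 7 mitosis genes fell. It had 33.1 to 108 RPKM (median 73.3) in GFP-positive and 15.1 to 28.2 (median 18.5) in GFP-negative samples, without overlap, beside 4.04% of all genes that were higher in this way. Sample 1 was the lowest of the GFP-positive and the highest of the GFP-negative samples, and each pair was higher on the GFP-positive side. The change was 1.70 (SE 0.38, adjusted p = 0.00768). In the SC cultures *Cdkn1a* had 19.3 to 64.7 RPKM (median 28) against 8.56 to 41.2 (median 30.7), was higher in 5 of 6 pairs, the exception being pair 4, and changed by 0.50 (SE 0.38, adjusted p = 0.728), or by 0.70 without number 4. The difference between the steps was 1.20 (SE 0.54, adjusted p = 0.643), and 1.01 without number 4. Between the GFP-positive fractions *Cdkn1a* was 0.99 higher in OMN (SE 0.36, adjusted p = 0.328), and 0.95 without number 4.

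*Cdkn1b*, which encodes p27, an inhibitor that accumulates as many neurons stop dividing, varied more between replicate numbers than between fractions. Its levels were 16.2 to 327 RPKM (median 88.5) in OMN GFP-positive, 8.3 to 144 (median 54.2) in OMN GFP-negative, 12.9 to 225 (median 65.8) in SC GFP-positive and 8.47 to 498 (median 38.1) in SC GFP-negative samples. In each group replicates 5 and 6 were above replicates 1 to 4, at 221 and 327, 126 and 144, 221 and 225, and 212 and 498 RPKM. In the OMN cultures *Cdkn1b* was higher in the GFP-positive sample of 6 of 6 pairs, and its change of 0.84 (SE 0.92) had an adjusted p of 0.771 without and 0.0255 with the pair block. In the SC cultures it was higher in 4 of 6 pairs.

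**Figure D4:**
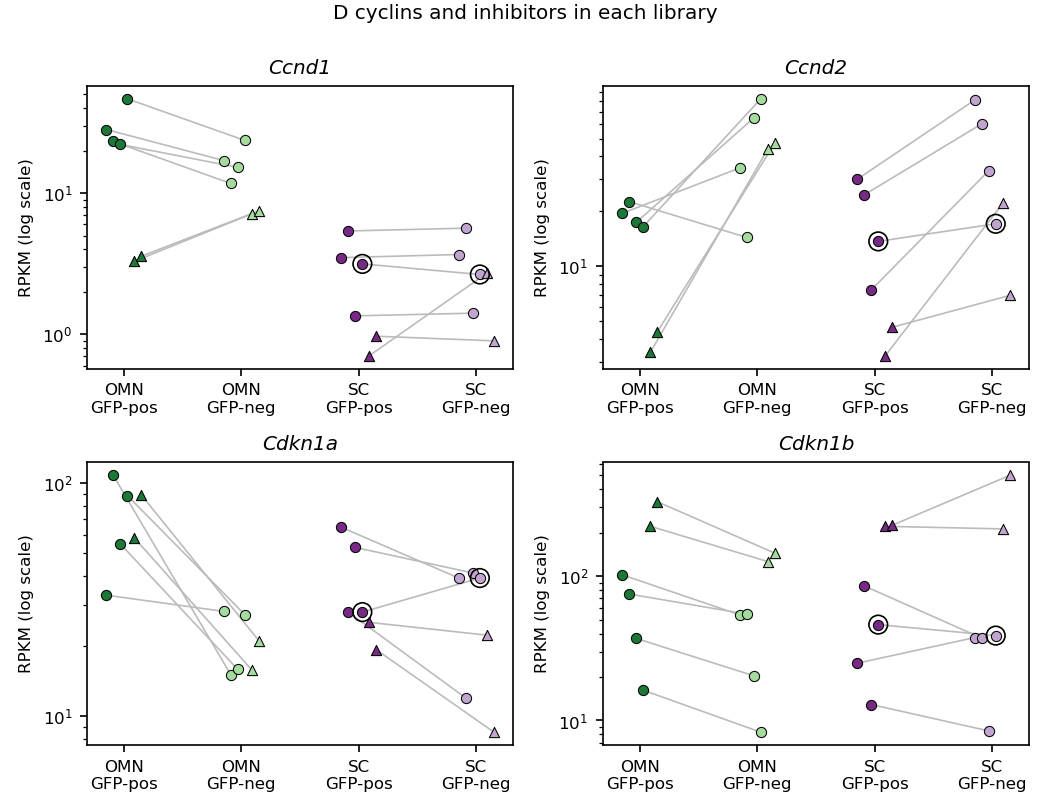
RPKM on a log scale of the D cyclins (top) and of the inhibitors *Cdkn1a* and *Cdkn1b* (bottom) in each library, with lines joining the samples of 1 number, triangles for replicates 5 and 6 and rings around both spinal samples of number 4. *Ccnd1* has higher medians in the OMN cultures, *Cdkn1a* has its highest group median in the OMN GFP-positive samples, and the triangles are the highest points of each group for *Cdkn1b*.

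Between the cultures the S phase and mitosis genes overlapped in both fractions. In the GFP-positive fraction none of the 37 passed the threshold in limma, 3 had an unadjusted p under 0.05 (*Ccnd1*, *Cdkn1a* and *Mcm6*), and 0.603% of the 19240 genes tested were called. The median log2 difference, OMN minus SC, was -0.40 over the S phase and -0.63 over the mitosis genes, beside -0.04 over all genes, and -0.15 and -0.22 without the spinal sample of number 4, where none was called, 2 had an unadjusted p under 0.05, and 0.633% of all genes were called. All 8 pluripotency markers were below 0 in this comparison (median -1.64, 3 with an unadjusted p under 0.05, none called in limma), 6 of 13 neural progenitor markers (1 called lower) and 4 of 10 neuronal markers had an unadjusted p under 0.05, and their part was not tested. In the GFP-negative fraction none of the 37 passed the threshold either, 3 had an unadjusted p under 0.05 (*Ccnd1*, *Tyms* and *Cdc20*), and 0.960% of all genes were called. There the medians were 0.60 and 0.66, beside -0.04 over all genes, and 0.91 and 0.94 without the spinal samples of number 4. Without them none was called either, 7 had an unadjusted p under 0.05, among them 5 of 16 S phase genes instead of 1, and 2.67% of all genes were called. Without GFP-negative sample 6 of SC the medians were 0.45 and 0.30. With all samples, all 16 S phase and 15 of 17 mitosis genes were above 0, with *Tyms* at 8.43 to 42.8 RPKM (median 24.7) in OMN against 3.69 to 20.4 (median 11.1) in SC, and *Cdc20* at 65 to 181 (median 120.0) against 21.1 to 95.3 (median 52.8). The OMN GFP-negative samples were the most alike for these genes, with a mean mitosis level between 4.56 and 5.53, and the SC GFP-negative samples ranged from 3.08 to 5.64. In this comparison 3 of 6 endoderm, 1 of 13 neural progenitor and 1 of 5 oligodendrocyte markers were called lower in OMN. Of 8 pluripotency markers 1 was called higher. Among the 13 neural progenitor markers 11 were below 0 (median -0.66), and 3 of the 13 had an unadjusted p under 0.05. Of the 8 pluripotency markers 6 had an unadjusted p under 0.05 (median 2.20), and 8 of 10 neuronal markers had an unadjusted p under 0.05 (median -1.73, none called in limma). The part of these markers in the levels of the cell cycle genes was not tested. Called genes of the whole table in the GFP-negative comparison were 91 higher and 122 lower in OMN, and 155 and 97 with quantile normalization.

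Replicate number went with the level of some members in every group. Replicates 5 and 6 were below replicates 1 to 4 in each of the 4 groups for 5 of the 37 genes (*Mcm7*, *Ccne1*, *E2f1*, *Plk1* and *Foxm1*), as they were for 3.39% of all genes. They were above in each group for 1, *Cdkn1b*, beside 1.85% of all genes. *E2f1* was at 1.84 and 1.7 RPKM in OMN GFP-positive samples 5 and 6 against 7.51 to 30.9 in samples 1 to 4, and at 0.921 and 0.413 against 9.34 to 15.3 in the SC GFP-positive samples. Within the OMN GFP-positive group, sample 6 was among the lowest 2 for 14 of 16 S phase and 15 of 17 mitosis genes, sample 5 for 12 and 14, and sample 1 was the highest for 11 and 14. Sample 1 also had the highest pluripotency sum of that group (265 RPKM), whereas the neuronal sums of samples 1, 5 and 6 were close (1632, 1826 and 1722 RPKM). Samples 5 and 6 had the highest mitochondrial share of that group (14.93% and 16.67% of the summed RPKM, against at most 11.57%) and the fewest genes above 1 RPKM (9685 and 9569, against at least 10639), and the spinal GFP-positive sample 4 had the highest mitochondrial share of all libraries (22.63%). The part of any of these in the levels of the cell cycle genes was not tested.

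The genes around the 37, in lists chosen by name, included further S phase and mitosis genes that were lower in the OMN GFP-positive fraction. These lists were chosen with earlier results of these data known, so their counts are not independent of the data. Of 30 further S phase genes 11 fell between the OMN fractions and none rose (26 fell with the pair block, 16 without number 4), beside 2.34% and 8.21% of all genes, with a median of -1.57. Without number 4, 869 of all 21837 genes fell. *Pola1*, the catalytic subunit of DNA polymerase alpha, had 0.657 to 2.99 RPKM (median 1.64) in GFP-positive and 6.35 to 11.4 (median 9.63) in GFP-negative samples (-1.95, SE 0.39, adjusted p = 0.00257). Of 40 further mitosis genes 12 fell and none rose (34 and 1 with the block, 19 and none without number 4), beside the same shares of all genes, with a median of -1.43. Among them were *Spc24*, of the kinetochore complex that binds microtubules, with 4.81 to 28.3 RPKM (median 8.66) against 45.8 to 91.6 (median 61.3) (-2.58, SE 0.53, adjusted p = 0.00366), and *Ttk*, the checkpoint kinase Mps1, with 0.859 to 4.95 (median 2.23) against 7.88 to 11.3 (median 10.3) (-1.75, SE 0.48, adjusted p = 0.0301). None of *Ccnd3*, *Cdk2*, *Cdk4* and *Cdk6* passed the threshold, 1 of these 4 had an unadjusted p under 0.05, and with the block 2 fell.

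Of the genes of the Rb, E2f and DREAM complexes, of further inhibitors and of cell cycle exit and the p53 response, 1 each rose between the OMN fractions and none fell, beside 3.81% of all genes that rose. With the pair block 1 of 15, 2 of 5 and 2 of 8 rose and 1 of the 15 fell, beside 8.22% and 8.21% of all genes. Of the 15 Rb, E2f and DREAM genes the 1 was *Rb1*, the retinoblastoma protein that restrains E2F factors, which had 5.86 to 8.21 RPKM (median 6.92) in GFP-positive and 1.78 to 4.29 (median 2.9) in GFP-negative samples (1.04, SE 0.26, adjusted p = 0.0174). Of the 5 inhibitors it was *Cdkn2d*, which encodes the Cdk4 and Cdk6 inhibitor p19, with 29.2 to 68.8 RPKM (median 53.3) against 8.34 to 21.2 (median 11.7) (1.90, SE 0.43, adjusted p = 0.00781). Of the 8 genes of exit and the p53 response it was *Ccng2*, an atypical cyclin found in cells that have stopped dividing, with 8.6 to 15.8 RPKM (median 12.9) against 4.54 to 6.76 (median 5.54) (1.10, SE 0.32, adjusted p = 0.0425). These 3 were higher in the GFP-positive sample of 6 of 6 pairs, and none of the 3 overlapped between the fractions, as 4.04% of all genes did not with GFP-positive higher. Between the SC fractions no gene of the 6 lists passed the threshold in limma, where 2 of the 40 mitosis genes, none of the 30 S phase genes and 1 each of the G1 kinases, the Rb, E2f and DREAM genes and the inhibitors had an unadjusted p under 0.05. With the pair block none passed either, and 8 of the 30 and 19 of the 40 had an unadjusted p under 0.05. The SC medians of the S phase and mitosis lists were -0.46 and -0.64, and -0.58 and -0.72 without number 4, where again no gene of the lists was called and 1 of the 30 and 4 of the 40 had an unadjusted p under 0.05. For the difference between the steps no gene of the lists was called in limma without the block, where 7 of the 30 and 4 of the 40 had an unadjusted p under 0.05. With the block 3 further S phase genes and 1 further mitosis gene were called, beside 2.04% of all genes called. An unadjusted p under 0.05 was then found for 17 of the 30 and 13 of the 40. Between the cultures 1 further S phase gene and 1 G1 kinase were higher past the threshold in the GFP-negative fraction of OMN (2 and 1 without number 4), beside 0.960% and 2.67% of all genes called, and no gene of the 6 lists passed in the GFP-positive fraction, where 4 of these genes in all had an unadjusted p under 0.05.

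The 250 bases before the transcription start were searched for motifs known from cell cycle promoters. RefSeq promoters of GRCm38.p6 were used for 30 of the 37 genes, 14 S phase, 14 mitosis and both inhibitor genes. The CCAAT box (CCAAT, either strand), bound by NF-Y, was present in 13 of 14 mitosis promoters (92.9%), 9 of 14 S phase promoters (64.3%) and 34.5% of all 27025 promoters of this length. At least 2 CCAAT boxes were found in 71.4%, 35.7% and 10.5%. The cell cycle homology region (CHR, TTTGAA or TTCGAA, either strand), an element of DREAM target genes, was present in 7 mitosis promoters (50.0%), 3 S phase promoters (21.4%) and 17.4% of all. An E2F site (TTTCCCGC, TTTGGCGC or TTTCGCGC, either strand) was present in 4 S phase promoters (28.6%; *Cdc6*, *Mcm5*, *Mcm6* and *Mcm7*), 1 mitosis promoter (7.14%; *Cdk1*) and 1.59% of all. A match describes these letters in this window and says nothing of binding. *Top2a*, *Bub1b*, *Mcm5* and *Mcm6*, 4 genes that fell between the OMN fractions without overlap, are shown 5′ to 3′ on the gene's strand, with each match to a CCAAT box, CHR or E2F site on either strand in capitals. *Top2a* is at chr11:99024190-99024439 (minus strand, 6 CCAAT boxes and 4 CHR), *Bub1b* at chr2:118597961-118598210 (plus strand, 1 of each), *Mcm5* at chr8:75109259-75109508 (plus strand, 2 CCAAT boxes and 2 E2F sites, 1 overlap between matches) and *Mcm6* at chr1:128359706-128359955 (minus strand, 2 CCAAT boxes and 3 E2F sites, 1 overlap).
Top2a: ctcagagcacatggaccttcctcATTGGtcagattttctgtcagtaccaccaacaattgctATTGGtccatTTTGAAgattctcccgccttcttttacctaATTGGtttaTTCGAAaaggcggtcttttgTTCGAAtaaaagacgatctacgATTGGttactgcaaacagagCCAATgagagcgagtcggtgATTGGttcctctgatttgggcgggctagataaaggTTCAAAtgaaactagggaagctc
Bub1b: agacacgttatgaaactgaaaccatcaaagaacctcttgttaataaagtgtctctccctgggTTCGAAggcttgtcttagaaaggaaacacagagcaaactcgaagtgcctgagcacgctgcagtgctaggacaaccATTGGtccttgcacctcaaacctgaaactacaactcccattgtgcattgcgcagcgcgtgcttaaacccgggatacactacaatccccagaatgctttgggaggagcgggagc
Mcm5: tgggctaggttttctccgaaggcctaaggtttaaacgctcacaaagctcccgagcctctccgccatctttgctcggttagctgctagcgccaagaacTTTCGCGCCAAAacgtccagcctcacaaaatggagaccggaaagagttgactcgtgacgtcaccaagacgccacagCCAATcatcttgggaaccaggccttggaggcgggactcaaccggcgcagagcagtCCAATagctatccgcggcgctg
Mcm6: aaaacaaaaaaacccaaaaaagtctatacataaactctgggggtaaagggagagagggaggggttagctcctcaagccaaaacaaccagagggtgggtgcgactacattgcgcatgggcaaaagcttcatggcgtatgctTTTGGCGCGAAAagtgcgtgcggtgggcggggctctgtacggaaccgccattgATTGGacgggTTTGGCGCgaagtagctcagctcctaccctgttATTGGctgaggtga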

How the data were processed

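Expression was analysed in 24 sorted samples, in 4 groups of 6. The deposited RPKM values were computed by the authors with rpkmforgenes from reads aligned with HISAT2 2.0.3 to mm10. Members and lists were chosen with earlier results of these data known. log2(RPKM + 1) was fitted with limma 3.58.1 (R 4.3.3, trend on mean level) over genes above 0 RPKM in at least 2 samples: 22179 genes in a fit of 24 samples with 4 groups, and 19240 in a fit of 12 samples for OMN against SC in the GFP-positive fraction. P-values were two-sided and adjusted by the Benjamini-Hochberg method over all genes. The code was tested on simulated data. Depth was estimated from 5911 genes with a single transcript. Pairing was checked from correlations of the deviations of paired samples (lowest r 0.39). Alternatives changed the pseudocount, filter, scaling, block, sample weights, samples fitted, single samples, doubted samples and replicate numbers. Positions came from GENCODE on GRCm38 and promoters from RefSeq. Python 3.11.15, numpy 2.4.6, pandas 2.3.3 and matplotlib 3.10.9 were used.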

Additional observations from a re-analysis of the deposited data

Results flagged for a closer look

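Each member (148 tests) and the mean levels of the S phase and mitosis genes (8 tests) were searched in each group for a single sample far from the other 5, and 2 of 156 tests found such a sample, where 7.8 would be found by chance at 1 in 20. *Cdc45* was at 2.72 on the log2(RPKM + 1) scale in OMN GFP-negative sample 3, below the nearest other sample at 3.82, with a gap of 0.636 of the range. *Ccne2* was at 3.35 in OMN GFP-positive sample 1, above the nearest other sample at 2.05, with a gap of 0.655 of the range. No explanation was tested for either.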

How the results depend on the processing

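Of the 37 genes, 15 were called between the OMN fractions. The count was 27 with replicate number as a block, 32 with the pair block (32 also without both spinal samples of number 4, an alternative chosen after seeing the data), 33 with sample quality weights and 0 with only replicates 1 to 4; in the last, fewer samples were fitted, and otherwise the cause was not tested. Other settings gave 15 to 22. Of 22179 genes, 845 rose and 519 fell in the main fit, and 1295 and 1066 with replicate number as a block. With the pair block 1823 rose and 1821 fell, and with sample quality weights 1732 and 2063. The count of the 37 was 5 to 20 with 1 library left out, with OMN GFP-positive samples 4 (7), 5 (5) and 6 (5) and GFP-negative samples 1 (6) and 2 (9) each moving it by over 1.5 times. Without these libraries in turn 331, 323, 313, 331 and 346 genes of the whole table fell. Those that rose were 686, 752, 758, 694 and 695. In the other comparisons the count was 0, and 0 to 0 with 1 library left out, except for 1 gene each: between the SC fractions with only replicates 5 and 6 (*Mki67*), for the difference of the steps with the pair block (*Bub1b*), and for *Ccnd1* in OMN against SC with quantile normalization and with only replicates 1 to 4 (both fractions), with replicate number as a block (GFP-negative) and in the fit of 24 samples (GFP-positive). The other counts of calls that the pair block changed are given with the results.

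Medians moved with only replicates 5 and 6: -2.97 for mitosis between the OMN fractions, and -1.85 (S phase) and -2.19 (mitosis) for the difference of the steps. Smaller shifts of over 1.5 times were, for S phase and mitosis, -0.84 and -1.10 between the SC fractions with sample quality weights, -0.57 and -0.63 for the difference of the steps with only replicates 1 to 4, and -0.25 and -0.36 (replicates 1 to 4) and -0.66 and -1.04 (replicates 5 and 6) for OMN minus SC in the GFP-positive fraction; for mitosis alone, 0.30 and 1.10 in the GFP-negative fraction. Without number 4 the OMN minus SC medians shifted as given with the results. With 1 library left out the medians (S phase, then mitosis) were -1.88 to -1.40 and -2.13 to -1.70 between the OMN fractions, -0.75 to -0.35 and -1.04 to -0.39 between the SC fractions, -1.31 to -0.82 and -1.52 to -0.87 for the difference of the steps, -0.70 to -0.15 and -0.93 to -0.22 for OMN minus SC in the GFP-positive and 0.45 to 0.91 and 0.30 to 0.94 in the GFP-negative fraction. *Ccnd1* between the OMN fractions (0.21) reversed to -0.35 with sample quality weights, -0.91 with only replicates 5 and 6 and -0.11 without OMN GFP-positive sample 4. It was 0.59 without sample 5 and at most 0.77 in any setting. The cause was not tested. Depth limits genes near 1 read, worth up to 0.664 RPKM in a transcript of 2 kb.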
